A study of Mus musculus with 21 samples.

Results

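The core autophagy genes described here are Ulk1, Becn1, Wipi1, Atg5, Atg7, Map1lc3a, Map1lc3b, Gabarap, Nbr1 and Tfeb. They are 10 of the 48474 rows of a table of read counts from mouse neocortex and were found by their symbols. The tissue is given as the sample labels name it. The study's methods call it brain cortex, and a legend names hippocampus for rNLS8 mice. Bulk RNAseq was compared between 10 rNLS8 mice, labelled TG, and 11 control littermates, labelled WT. The rNLS8 mice carried a transactivator driven by the neurofilament heavy chain promoter and a responder transgene for human TDP-43ΔNLS, a TDP-43 without its nuclear localization signal, so that the protein was made almost entirely in neurons. The design text describes the controls labelled WT as monogenic, and which component each carried was not given. All 21 mice of both groups were 17 to 19 weeks old when a control antisense oligonucleotide without a target (non-targeting ASO) was injected into the cerebral ventricles, at 350 µg in a volume of 10 µL. All were also fed doxycycline (200 mg/kg of diet), which keeps the transgene off, until 2 weeks after the injection and were killed after a further 3 weeks without it. The mice came from independent cohorts, given in the labels as batch A (4 WT and 3 rNLS8 mice) and batch B (7 WT and 7 rNLS8 mice). The question here was whether transcripts of the autophagy machinery differed between the genotypes.

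Macroautophagy delivers cytosolic cargo to lysosomes in vesicles with a double membrane. The ULK1 kinase complex starts the process, the Beclin 1 lipid kinase complex marks the forming membrane with phosphatidylinositol 3-phosphate, and ubiquitin-like conjugation attaches proteins of the LC3 and GABARAP families to it, which bind receptors that carry the cargo. In neurons the pathway clears protein aggregates and damaged organelles from long axons, and TFEB is a transcription factor that switches on lysosome and autophagy genes.

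Total counts per mouse were between 20700912 and 22263809, and no member had fewer than 110 reads in any mouse. The genotype labels were compared with Tardbp, which encodes mouse TDP-43. It had 2253 to 2827 normalized counts in WT mice, 4405 to 5053 in rNLS8 mice of batch B and 2363 to 3091 in rNLS8 mice of batch A. The lowest of these, T61340, lay within the WT range, and how many reads of the human transgene were counted on Tardbp was not tested. T61340 also stood apart in another respect, since across 16149 genes its deviation from the group mean ran against exon length (Spearman rho -0.478 as a description, against -0.18 to 0.33 in the other mice). Where this mouse was the highest or lowest of its group, the member's value is also given without it. None of the 6 neocortex markers was at 0, and the lowest of them averaged 572 normalized counts.

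The promoters of 4 members are shown because these are the genes that were higher in rNLS8 mice and the genes whose promoter held an E-box, the core of the sequence that TFEB binds. RefSeq windows for GRCm38.p6, from 250 bases before to 50 bases after the annotated start, were found for 8 of the 10 members (11 windows in all). The E-box letters CACGTG, which read the same on both strands, occurred in 2 of these windows and in 7.15% of the 32851 windows of all genes. The longer letters TCACGTGA were also searched and occurred in no window of a member and in 0.974% of the windows of all genes. They are in capitals below, at position -14 of Atg5 and -132 of Atg7 relative to the start. The windows are chr5:110810032-110810331 on the minus strand for Ulk1, chr8:121590188-121590487 on the plus strand for Map1lc3b, chr6:114670846-114671145 on the plus strand for Atg7 and chr10:44268089-44268388 on the plus strand for Atg5. The Atg7 window belongs to a RefSeq start that lies inside the gene as GENCODE annotates it.
Ulk1: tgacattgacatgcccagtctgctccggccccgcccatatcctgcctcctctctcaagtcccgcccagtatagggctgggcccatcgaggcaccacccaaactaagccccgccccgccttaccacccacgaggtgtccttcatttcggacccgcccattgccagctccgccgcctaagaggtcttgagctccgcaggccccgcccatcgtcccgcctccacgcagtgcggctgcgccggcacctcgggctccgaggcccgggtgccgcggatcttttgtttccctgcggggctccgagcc
Map1lc3b: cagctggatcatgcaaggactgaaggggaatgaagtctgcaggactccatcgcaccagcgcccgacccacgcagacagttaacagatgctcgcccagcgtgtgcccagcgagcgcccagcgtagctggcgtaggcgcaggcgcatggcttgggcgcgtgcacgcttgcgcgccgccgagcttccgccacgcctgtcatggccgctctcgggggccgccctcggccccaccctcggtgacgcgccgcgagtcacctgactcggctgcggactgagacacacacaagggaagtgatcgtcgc
Atg7: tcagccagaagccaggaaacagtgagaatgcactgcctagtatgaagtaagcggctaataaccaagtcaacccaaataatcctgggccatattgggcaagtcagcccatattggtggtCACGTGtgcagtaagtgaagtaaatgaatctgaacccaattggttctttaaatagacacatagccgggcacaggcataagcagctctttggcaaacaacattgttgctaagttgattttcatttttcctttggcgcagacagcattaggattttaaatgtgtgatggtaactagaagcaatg
Atg5: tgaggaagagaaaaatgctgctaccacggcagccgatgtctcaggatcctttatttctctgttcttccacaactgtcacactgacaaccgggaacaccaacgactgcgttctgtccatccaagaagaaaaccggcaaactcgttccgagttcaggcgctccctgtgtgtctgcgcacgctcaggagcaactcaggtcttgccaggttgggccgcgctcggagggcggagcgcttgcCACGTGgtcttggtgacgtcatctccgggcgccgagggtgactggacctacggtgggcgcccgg
The Ulk1 and Map1lc3b windows were each 68.0% G and C, the Atg5 window 59.3% and the Atg7 window 42.7%. Of the 3 genes that were higher in rNLS8 mice, Atg7 was the one whose window held the letters. Atg5, with the letters just upstream of its start, did not pass the test. A match of letters is a description of the sequence and does not show that a factor binds there.

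In rNLS8 neocortex, Ulk1, Map1lc3b and Atg7 were higher and Becn1 was lower, while the other 6 members did not pass the test. The call of Atg7 was lost in each batch alone and in 13 of the 21 fits that left out 1 mouse. Becn1 fell to 0.75-fold and Map1lc3b rose 1.25-fold of the WT level, and these were the largest differences in either direction among the members. The test was edgeR's quasi-likelihood test with batch in the model, and a gene was called at a Benjamini-Hochberg adjusted p under 0.05 over all 18248 genes tested. The share of members called, 4 of 10, was near the 44.7% of all genes called. The 3 that rose compare with 23.0% of all genes called higher, and the 1 that fell with 21.7% called lower. The members' median absolute log2 fold change was 0.12, against 0.18 over all genes tested. With scaling by library size only, 7 members were called (Ulk1, Atg5, Atg7, Map1lc3b, Gabarap and Tfeb higher, Becn1 lower), 47.0% of all genes were called, and the share of all calls that were higher went from 51.4% to 67.9%. That scaling moved the median log2 fold change of all genes to 0.08. With DESeq2, which called 45.1% of all genes, Nbr1 was called in addition to the 4. In a bulk sample, fewer cells of a type and less RNA per cell cannot be told apart.

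**Figure D1:**
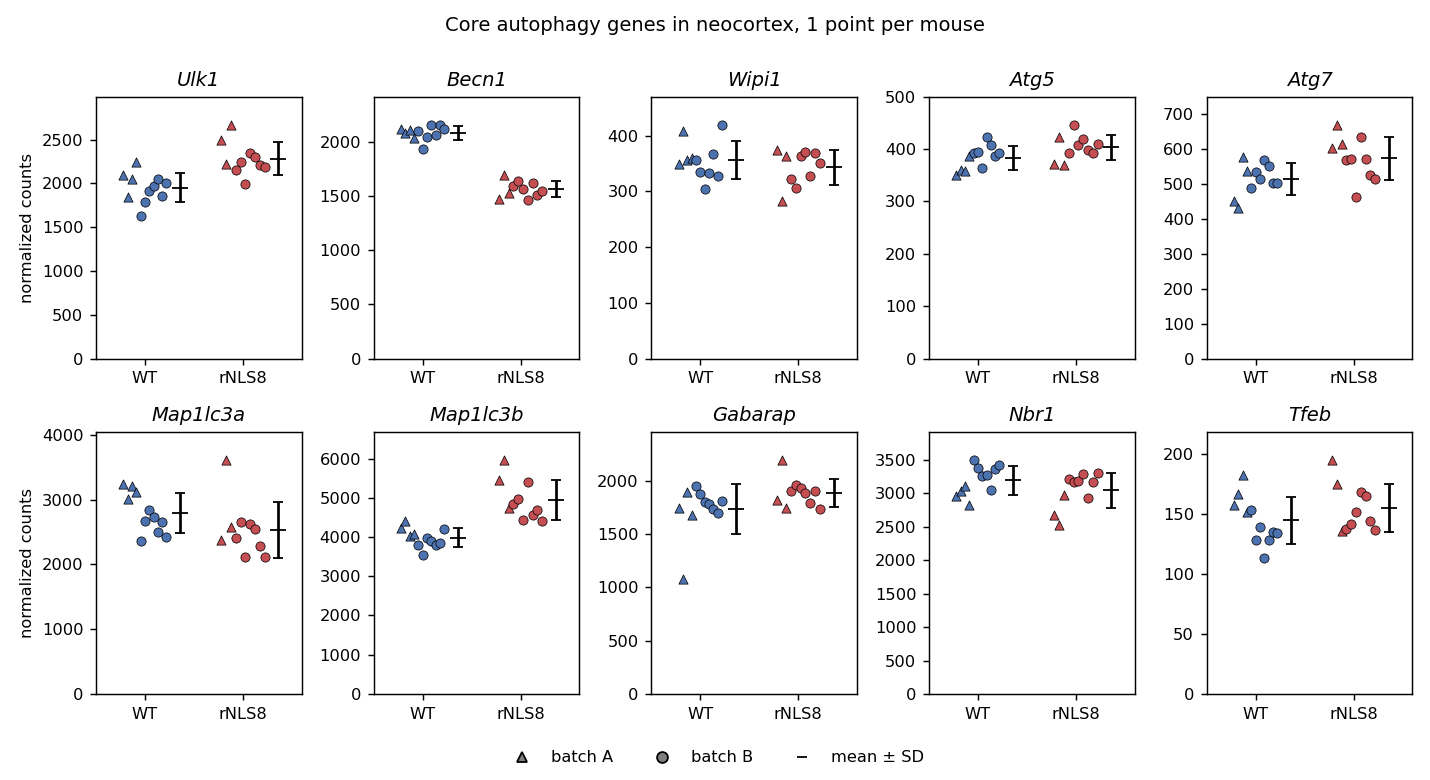
Normalized counts of the 10 core autophagy genes (y axis, from 0) in WT and rNLS8 mice (x axis). Each point is 1 mouse, triangles are batch A and circles batch B, and the bars give the mean ± SD of 11 WT or 10 rNLS8 mice. All rNLS8 mice lie below all WT mice for Becn1, and 9 of 10 lie above every WT mouse for Map1lc3b.

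Ulk1 encodes the serine/threonine kinase that starts autophagosome formation and lies on chr5:110784488-110810097 (minus strand, GRCm38, GENCODE). Normalized counts ran from 1633 to 2240 in WT mice, with a median of 1969. The rNLS8 mice had from 1993 to 2670, with a median of 2232. The groups overlapped, with 4 rNLS8 mice above every WT mouse and 6 WT mice below every rNLS8 mouse. Means were 1950 ± 166 (SD, n = 11) and 2283 ± 189 (SD, n = 10). This gave a log2 fold change of 0.24 (SE 0.046, adjusted p = 0.00017, edgeR). Within batch A it was 0.28 (adjusted p = 0.110) and within batch B 0.22 (adjusted p = 0.0022), with 11.8% and 39.1% of all genes called in these batches. The call was made in each of the 21 fits that left out 1 mouse. Without T61340 the log2 fold change was 0.25.

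Of the 4 other genes of the initiation complex tested, 1 rose, 2 fell and Atg13 did not pass the test (log2 fold change -0.02). Such counts stand beside 23.0% of all genes called higher and 21.7% called lower, or 32.0% and 15.1% with library size only, and no list was tested against that background. Ulk2, the paralogous kinase, had 2572 ± 187 normalized counts in WT mice (SD, n = 11) and 1938 ± 164 in rNLS8 mice (SD, n = 10), a log2 fold change of -0.41 (adjusted p = 5.1e-07, edgeR). All 10 rNLS8 mice were below every WT mouse for Ulk2, and groups without overlap were found for 7.65% of all genes tested. The kinase genes Ulk1 and Ulk2 thus changed in opposite directions. Atg101, which stabilizes the complex, changed by -0.36 on the log2 scale (adjusted p = 4.9e-05, and -0.39 without T61340), with 9 rNLS8 mice below every WT mouse. Rb1cc1, the scaffold FIP200, changed by 0.14 (adjusted p = 0.0432). It was called in 8 of the 21 fits that left out 1 mouse, and without T_70263, the highest rNLS8 mouse, its adjusted p was 0.0949.

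Becn1 encodes Beclin 1, the regulatory subunit of the lipid kinase complex of nucleation, on chr11:101285952-101302286 (minus strand). In WT mice it had from 1930 to 2155 normalized counts, with a median of 2097. The rNLS8 mice had from 1464 to 1689, with a median of 1554. The highest rNLS8 mouse, T61340, lay below the lowest WT mouse, so the groups did not overlap. This was the case for 1 of the 10 members and for 7.65% of all genes tested. Means were 2082 ± 64.2 (SD, n = 11) and 1562 ± 72.5 (SD, n = 10). This was a log2 fold change of -0.41 (SE 0.033, adjusted p = 4.4e-10, edgeR). It was alike in the batches, with -0.39 in batch A (adjusted p = 0.0259) and -0.42 in batch B (adjusted p = 5.8e-08). The interaction of genotype and batch was -0.0013 on the log2 scale (SE 0.072), and without T61340 the log2 fold change was -0.43. Becn1 shares 3104 exonic bases, 43.9% of its exons, with Cntd1 on the opposite strand, and whether the counting used strand was not given in the sources used here. Cntd1 itself had from 2.93 to 18.2 normalized counts per mouse and a log2 fold change of -0.16 (adjusted p = 0.634).

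Of the 7 other nucleation genes tested, 3 rose and 1 fell, and with library size only 5 rose and 1 fell, a scaling under which the share of all genes called higher also went from 23.0% to 32.0%. Nrbf2, a subunit of the same complex, had 334 ± 23.3 normalized counts in WT mice (SD, n = 11) and 250 ± 18.3 in rNLS8 mice (SD, n = 10). Its log2 fold change was -0.43 (adjusted p = 2.4e-07, edgeR), and as with Becn1 all rNLS8 mice were below all WT mice. Rubcn, which encodes the inhibitor Rubicon, changed by 0.18 (adjusted p = 0.00025), and only 1 rNLS8 mouse was not above all WT mice. Uvrag, an alternative partner of Beclin 1, changed by 0.17 (adjusted p = 0.0167). Uvrag was not called in either batch alone, with 0.28 in batch A (adjusted p = 0.183) and 0.11 in batch B (adjusted p = 0.102).

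Wipi1 encodes a propeller protein that reads phosphatidylinositol 3-phosphate on the forming membrane and lies on chr11:109573331-109611967 (minus strand). WT mice had from 305 to 420 normalized counts (median 356.8) and rNLS8 mice from 282 to 374 (median 356.9). The groups overlapped almost fully and their medians were nearly equal. The log2 fold change was -0.05 (SE 0.061, adjusted p = 0.525, edgeR), and 0.03 with scaling by library size only. The lowest rNLS8 mouse was T61340, and without it the log2 fold change was -0.01. Among the 9 other genes of membrane supply and lipid transfer, 2 rose and 1 fell (3 and 1 with library size only). Over all genes tested, 23.0% were called higher and 21.7% lower, and 7.65% did not overlap between the groups. Atg9a, the scramblase of the vesicles that seed the membrane, changed by 0.32 (adjusted p = 5.3e-06) and was above every WT mouse in all 10 rNLS8 mice. Zfyve1, which encodes the omegasome marker DFCP1, changed by 0.27 (adjusted p = 2.3e-05). Vmp1, a scramblase of the endoplasmic reticulum, changed by -0.24 (adjusted p = 3.4e-05).

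Atg5, on chr10:44268358-44364291 (plus strand), encodes the acceptor to which ATG12 is joined. WT mice had from 350 to 424 normalized counts (median 387) and rNLS8 mice from 369 to 447 (median 403). A single rNLS8 mouse, T_69526, was above every WT mouse. Atg5 had a log2 fold change of 0.07 (SE 0.041, adjusted p = 0.190, edgeR).

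Atg7, on chr6:114643097-114860614 (plus strand), encodes the E1-like enzyme that activates both ATG12 and the LC3 family. WT mice had from 432 to 576 normalized counts (median 515) and rNLS8 mice from 462 to 670 (median 572). The groups overlapped, and 4 rNLS8 mice were above every WT mouse. The log2 fold change of 0.16 (SE 0.062, adjusted p = 0.0411, edgeR) was close to the threshold. It was 0.36 in batch A (adjusted p = 0.087), where the rNLS8 mice had 604, 615 and 670 and the WT mice 432 to 576 normalized counts. In batch B it was 0.06 (adjusted p = 0.457), and there the groups overlapped. The interaction was 0.26 (SE 0.12, unadjusted p = 0.042, adjusted p = 0.871), so that a difference between the batches was not shown. The call was made in 8 of the 21 fits that left out 1 mouse. It was lost without the rNLS8 mice T_70252, T_69526, T_70261, T_69524, T60303, T61340 or T61342 or the WT mice T_70264, T_69532, T_70262, T_69523, T61333 or T61331, with adjusted p between 0.0501 and 0.0848. The highest of these was without T61340, at a log2 fold change of 0.13.

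Of the 8 other conjugation genes, 2 rose and 4 fell, with a median log2 fold change of -0.10, beside 44.7% of all genes called and 21.7% called lower. Scaling by library size only left 2 that rose and 2 that fell. Atg4c, a protease that processes LC3 proteins, changed by -0.30 (adjusted p = 1.1e-05), and 9 rNLS8 mice were below every WT mouse. Atg10, the E2-like enzyme for ATG12, changed by -0.28 (adjusted p = 0.0026). Atg3, the E2-like enzyme for the LC3 family, changed by 0.17 (adjusted p = 0.0038).

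**Figure D2:**
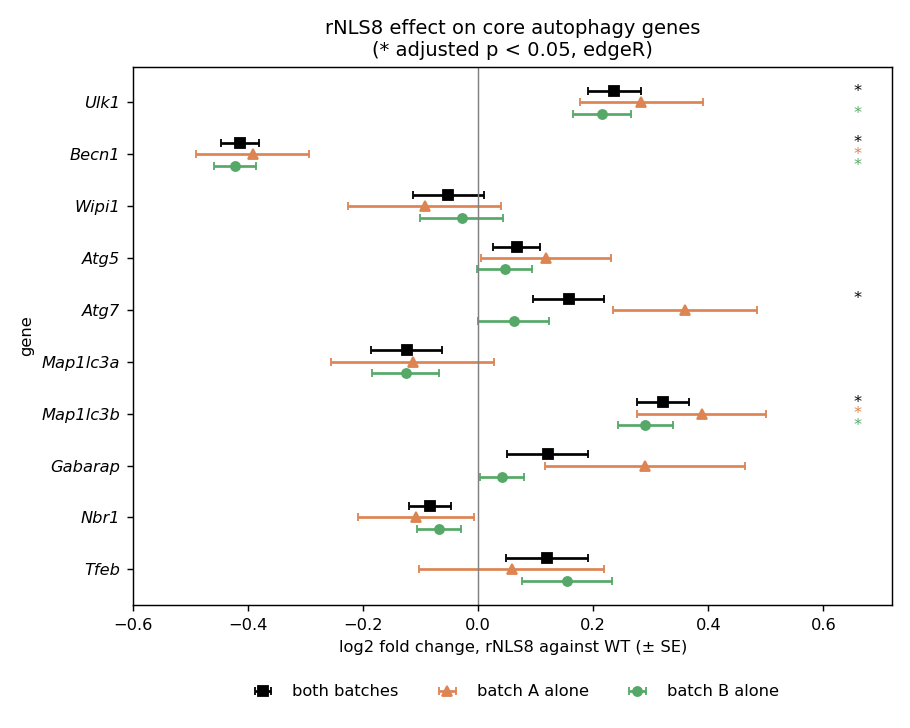
Log2 fold change of each core autophagy gene between rNLS8 and WT mice (x axis, ± SE) from the fit of both batches and from batch A and batch B alone. Asterisks mark adjusted p under 0.05. Becn1 lies near -0.4 and Map1lc3b between 0.29 and 0.39 in all 3 fits, whereas Atg7 is at 0.36 in batch A and 0.06 in batch B.

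The ATG8 family members are joined to phosphatidylethanolamine on the membrane, and LC3B is the form most used to follow autophagosomes. Map1lc3b, which encodes it, lies on chr8:121590361-121598760 (plus strand). Its normalized counts ran from 3535 to 4409 in WT mice, with a median of 3967. The rNLS8 mice had from 4408 to 5961, with a median of 4798. Only the WT mouse T61333, of batch A, reached the level of the lowest rNLS8 mouse, T_70267, of batch B. Means were 3982 ± 243 (SD, n = 11) and 4947 ± 504 (SD, n = 10). This gave a log2 fold change of 0.32 (SE 0.045, adjusted p = 2.7e-06, edgeR). It was 0.39 in batch A (adjusted p = 0.0456) and 0.29 in batch B (adjusted p = 0.00010). The highest rNLS8 mouse was T61340, and without it the log2 fold change was 0.30. The overlap of Map1lc3b with Zcchc14 on the other strand was 58 bases, 0.772% of its exons.

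Map1lc3a, which encodes LC3A, lies on chr2:155276297-155278073 (plus strand) and did not follow Map1lc3b. WT mice had from 2359 to 3241 normalized counts (median 2728) and rNLS8 mice from 2109 to 3612 (median 2484). The top value was that of T61340, while the other 9 rNLS8 mice had between 2109 and 2653. The log2 fold change was -0.12 (SE 0.062, adjusted p = 0.106, edgeR). Without T61340 it was -0.18 and passed the test (adjusted p = 0.00752), and without T60303 it was -0.09 (adjusted p = 0.228). Without both T61340 and T60303 it was -0.15, in a fit with T61342 as the only rNLS8 mouse of batch A. WT mice of batch A (3004 to 3241) all lay above WT mice of batch B (2359 to 2839).

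Gabarap, on chr11:69991143-69994951 (plus strand), was counted in 2 rows of the table, the further row under the same symbol with a suffix. In 20 mice the further row held 11 to 37 reads more than the first, but in the WT mouse T61333 of batch A the first row held 1047 reads and the further row 1694. In the first row WT mice had from 1075 to 1954 normalized counts (median 1780) and rNLS8 mice from 1736 to 2194 (median 1892). The lowest value is that of T61333, and the next lowest WT mouse had 1681. The log2 fold change was 0.12 in the first row (SE 0.070, adjusted p = 0.169) and 0.07 in the further row (SE 0.041, adjusted p = 0.152). Without T61333 the first row gave 0.07, so the rows differed through this mouse. The highest rNLS8 mouse was T61340, and without it the rows gave 0.08 and 0.04. The other family members tested, Gabarapl1 and Gabarapl2, had log2 fold changes of 0.01 (SE 0.051) and 0.00 (SE 0.043) and did not pass the test. Of the 5 genes of the family, Map1lc3b was called, beside 44.7% of all genes, and Gabarap was called in addition with library size only.

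**Figure D3:**
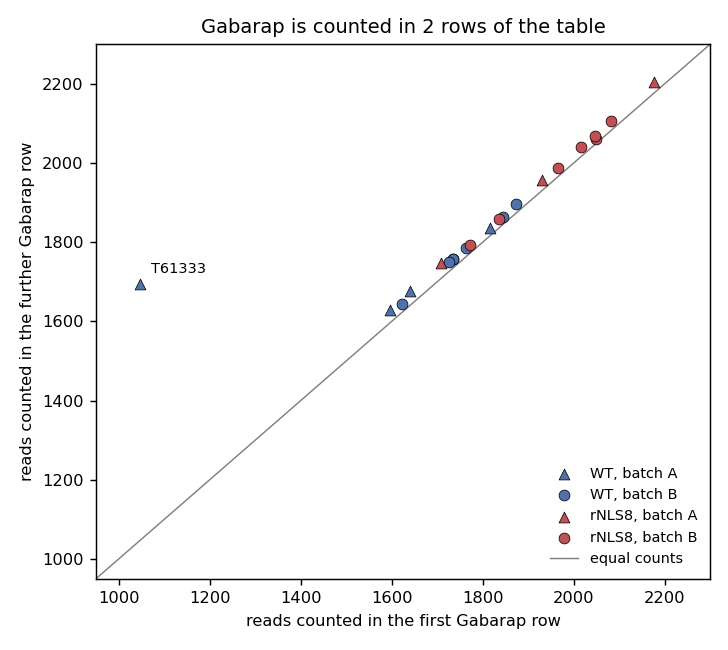
Reads counted in the first Gabarap row (x axis) and in the further Gabarap row (y axis), 1 point per mouse, with a line of equal counts. Neither axis starts at 0. All mice lie just above the line except T61333, with 1047 and 1694 reads.

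Nbr1 encodes a receptor that binds ubiquitin on cargo and LC3 on the membrane and lies on chr11:101552149-101581951 (plus strand). In WT mice from 2824 to 3500 normalized counts were found (median 3257), and in rNLS8 mice from 2533 to 3313 (median 3176). The overlap was wide, though 4 WT mice lay above every rNLS8 mouse and 2 rNLS8 mice, both of batch A, below every WT mouse. Nbr1 had a log2 fold change of -0.08 (SE 0.037, adjusted p = 0.0699, edgeR). It passed the threshold with DESeq2 (adjusted p = 0.0345), with upper-quartile normalization (adjusted p = 0.0432) and without the WT mouse T_70260 (0.0334) or the rNLS8 mouse T61342 (0.0349), but in none of the other fits that left out 1 mouse. Without T61340, its lowest rNLS8 mouse, Nbr1 had a log2 fold change of -0.07 (adjusted p = 0.127). Of the 10 other receptor genes, 3 rose and 2 fell (4 and 2 with library size only). Over all genes tested, 44.7% were called, 23.0% higher and 21.7% lower. Optn, the receptor optineurin, had 328 ± 31.4 normalized counts in WT mice (SD, n = 11) and 439 ± 30.9 in rNLS8 mice (SD, n = 10), a log2 fold change of 0.41 (adjusted p = 9.5e-07). Calcoco1, a receptor for the endoplasmic reticulum, changed by 0.37 (adjusted p = 6.9e-07). For both, all rNLS8 mice were above all WT mice. Bnip3l, the mitochondrial receptor NIX, changed by -0.32 (adjusted p = 2.5e-06), with all rNLS8 mice below all WT mice. The groups did not overlap for 7.65% of all genes tested.

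Genes of fusion with the lysosome came next in the pathway. Of 7 tested, 2 rose and none fell, and with library size only 4 rose, where 23.0% and 32.0% of all genes were called higher. Stx17, the syntaxin of the autophagosome, changed by 0.22 (adjusted p = 0.0021). Vamp8, its partner on the lysosome, changed by 0.24 (adjusted p = 0.0223), and by 0.21 without T61340 and T60303 (adjusted p = 0.0907).

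Tfeb lies on chr17:47737030-47792419 (plus strand) and was the least abundant member. Levels in WT mice were from 113 to 183 normalized counts (median 139) and rNLS8 mice from 136 to 195 (median 148). A single rNLS8 mouse, T60303, was above every WT mouse, and 5 WT mice were below every rNLS8 mouse. Tfeb had a log2 fold change of 0.12 (SE 0.071, adjusted p = 0.180, edgeR), and this was 0.16 without T61342 (adjusted p = 0.0449). Of the 12 other regulators, 3 rose and 1 fell, and with library size only 6 rose and 1 fell. Of all genes, 23.0% were called higher, and 32.0% with library size only. Prkaa2, a catalytic subunit of AMPK, changed by 0.33 (adjusted p = 0.00064), with 9 rNLS8 mice above and 1 below every WT mouse. Its lowest and highest rNLS8 mice (873 and 1703 normalized counts) were both of batch A, where it was not called (0.30, adjusted p = 0.317). Prkaa2 changed by 0.39 without T61340 and by 0.26 without T61342. Tfe3, a relative of Tfeb, changed by 0.23 (adjusted p = 0.00058). Foxo3, a transcription factor of autophagy genes, changed by -0.22 (adjusted p = 0.00054), and by -0.18 without T61340.

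Lysosome genes known as targets of TFEB were described as well, as a list chosen with earlier results of these data known. Of 18 tested, 12 rose and 2 fell (14 and 2 with library size only), with a median log2 fold change of 0.18. The 2 that fell were Psap (-0.21, adjusted p = 0.0025, edgeR), the most abundant gene of the list, and Atp6v1h (-0.22, adjusted p = 0.0016). The summed level of the list overlapped, with 81609 to 105397 normalized counts in WT and 83526 to 104751 in rNLS8 mice. Over all genes tested, 23.0% were called higher and 21.7% lower. Gla, the alpha-galactosidase A, had 271 ± 28.7 normalized counts in WT mice (SD, n = 11) and 494 ± 69.2 in rNLS8 mice (SD, n = 10), a log2 fold change of 0.87 (adjusted p = 4.6e-10, edgeR), or 0.82 without T61340. Ctsd, the protease cathepsin D, changed by 0.71 (adjusted p = 3.0e-09). For both genes all 10 rNLS8 mice were above all WT mice, beside 7.65% of all genes without overlap in either direction.

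**Figure D4:**
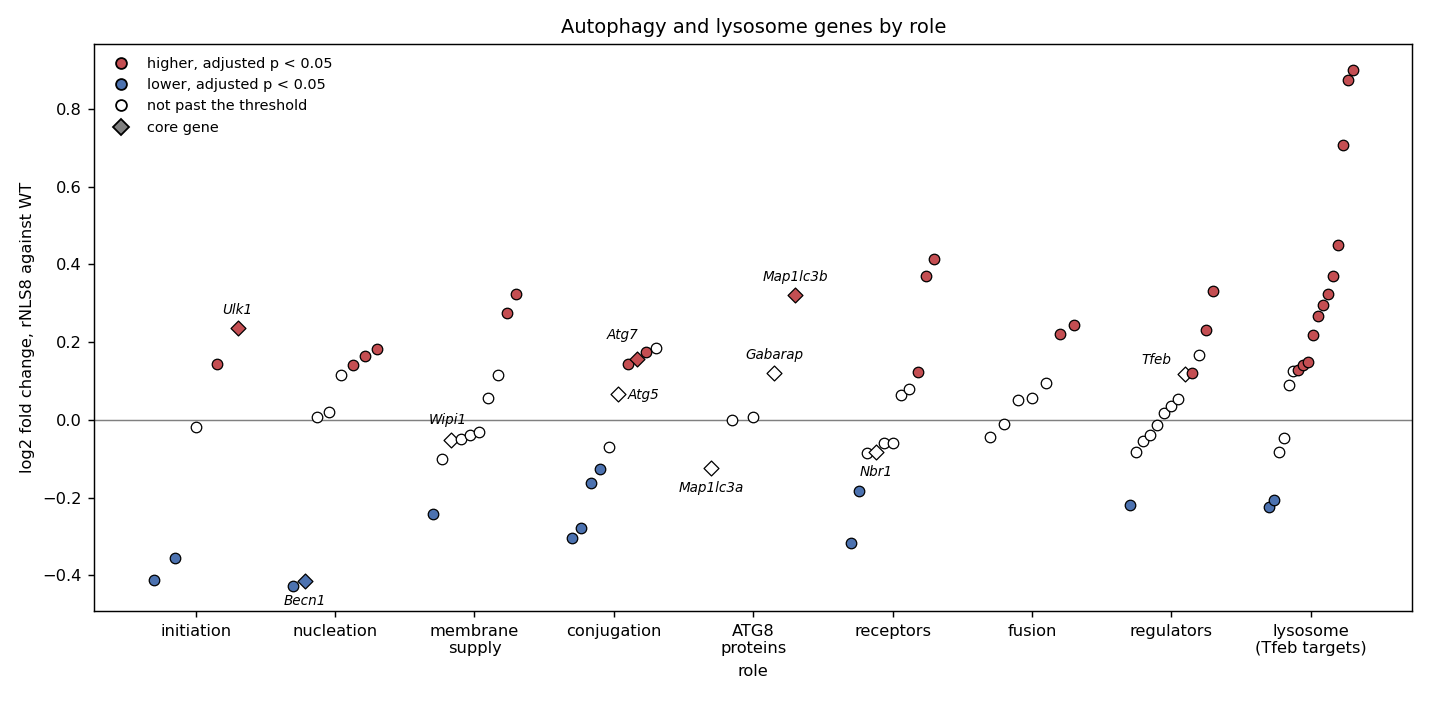
Log2 fold change between rNLS8 and WT mice (y axis) of autophagy and lysosome genes grouped by role (x axis). Each point is a gene, diamonds are the core genes, red is higher and blue lower at adjusted p under 0.05, and white did not pass. Of the 18 lysosome genes 12 are red, whereas conjugation holds 3 red and 4 blue points.

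Outside the members, 59 autophagy genes of the 8 role lists were tested, of which 16 rose and 11 fell. With library size only 25 rose and 9 fell. Their median log2 fold change was 0.02, and 45.8% were called against 44.7% of all genes.

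Per kilobase of the exons of all annotated isoforms, the members spanned a wide range of levels. In WT mice Map1lc3a was at the top with 2368 ± 266 normalized counts per kilobase (SD, n = 11), followed by Gabarap with 939 ± 127 in the first of its rows, which includes the low value of T61333. Whether both Gabarap rows hold the same reads is not known, and their sum was 1924 ± 159 per kilobase, within reach of the Map1lc3a range (1997 to 2744) at its highest, 2133. Map1lc3b had 530 ± 32.4 and Nbr1 465 ± 31.1 per kilobase, and their ranges overlapped. Ulk1 (301 ± 25.6) and Becn1 (295 ± 9.08) stood side by side within their spread, and Atg5 had 163 ± 9.69. Wipi1 (80.8 ± 7.67) and Atg7 (73.9 ± 6.53) overlapped as well, and Tfeb was lowest with 25.5 ± 3.50. In rNLS8 mice Ulk1 (352 ± 29.2 per kilobase, n = 10) and Becn1 (221 ± 10.3) no longer lay within their spread. The gap between the level of Map1lc3b (658 ± 67.1) and that of Nbr1 (443 ± 38.8) was wider too. The length used is that of all exons of a gene, which need not be the length transcribed in neocortex.

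No member's genotype effect differed between the batches past the threshold. edgeR's interaction test called 0 of 18248 genes (0%), of which 1030 had an unadjusted p under 0.05, and DESeq2 called 1. For Tardbp, used above to check the labels, edgeR's interaction was -0.56 (SE 0.098, unadjusted p = 7.3e-06, adjusted p = 0.133). Its log2 fold change was 0.26 in batch A and 0.79 in batch B. Atg7 was the 1 member with an unadjusted p under 0.05.

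T61340 was the highest of the rNLS8 mice for 5 members (Becn1, Atg7, Map1lc3a, Map1lc3b and Gabarap) and the lowest for 2 (Wipi1 and Nbr1). Without it Ulk1, Becn1 and Map1lc3b were still called, Atg7 was no longer called and Map1lc3a was called in addition.

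Markers of cell types differed between the genotypes beside these genes. Of 7 neuron markers, 4 fell (Snap25, Syt1, Map2 and Nefl) and none rose. Rbfox3 (log2 fold change -0.10), Tubb3 (-0.06) and Slc17a7 (0.06) did not pass the test. The summed level of all 7 was 137386 to 168493 normalized counts in WT and 103779 to 128518 in rNLS8 mice, without overlap. Within that sum Snap25 alone averaged 47235 in WT and 28150 in rNLS8 mice. Of all genes tested, 21.7% were called lower. The 7.65% of genes that did not overlap between the groups refers to single genes, and no such share was computed for sums. Of 5 astrocyte markers, 1 rose and 4 fell (1 and 1 with library size only), with sums of 22927 to 29221 and 22509 to 34002. Of 6 microglia markers, 3 rose and 1 fell, with sums of 4803 to 5612 and 4770 to 6402, and without T61340 and T60303 none rose and 1 fell. Of 5 endothelial markers, 2 fell (none with library size only), with sums of 3568 to 4447 and 3005 to 3911. None of 6 oligodendrocyte markers passed the test, with sums of 91421 to 153728 and 87506 to 155609. No marker of these lists was at 0 in all mice, and the part of these differences in the results for the autophagy genes was not tested.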

How the data were processed

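The authors sequenced mRNA libraries of neocortex at BGI as paired 100-base reads and deposited raw whole-number counts, with rows named by gene symbol. The submitters' processing notes name HISAT, HISAT2, Bowtie, Bowtie2, RSEM and mm10, and the program that made the counts and its strand setting were not given in the sources used here. Groups were taken from the genotype label and batches from the batch label, and replicates were separate mice. The lowest chi-square per gene between any 2 libraries was 4.17, above sampling noise, so no library was treated as a repeat of another.

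Counts were analysed in R 4.3.3 with edgeR 4.0.16 (filterByExpr with a minimum count of 10 and a minimum total of 15, TMM, glmQLFit and glmQLFTest, two-sided) with genotype and batch in the model and p-values adjusted by Benjamini-Hochberg across all 18248 tested genes (threshold 0.05). All 10 members passed the filter. Normalized counts were obtained by scaling each library to the mean TMM-corrected library size, and SE values from the fold change and its F value. DESeq2 1.42.0, other scalings and filters, each batch alone and leaving out mice were alternatives. The fit without T61340 and T60303 kept T61342 as the only rNLS8 mouse of batch A. The script was tested on simulated data. Of 48474 rows, 13329 held no count and 2553 were further rows of a symbol, with 4.11% of counts, kept as deposited. Positions and exon lengths were taken from GENCODE M21 (GRCm38).

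Beside the members, up to 3 genes per role list (4 for lysosome genes) were named, by size of log2 fold change, from genes with adjusted p under 0.05, a mean of at least 50 normalized counts and the same direction in both batches alone. Some of the genes that this rule named are not reported here. The members, the lists and the tests were chosen with earlier results of these data known. Reads carried no molecular identifiers.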

Additional observations from a re-analysis of the deposited data

Results flagged for a closer look

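In 34 sets of values, 1 per named gene in the 10 rNLS8 mice, the gap of the highest or lowest mouse to its neighbour was compared with the whole range of the group by Dixon's ratio at its 95% critical value. Chance gives about 1 in 20 sets of independent values from a single homogeneous group. Here 7 of 34 were found, but the sets share the same mice, 5 of the 7 come from T61340, and mice of both batches were pooled, so that this rate does not apply as it stands. T61340 lay well above the rest of its group for Map1lc3a (3612 normalized counts, next 2653, ratio 0.638), Gabarap (2194, next 1961, ratio 0.508), Atg101 (471, next 394, ratio 0.490) and Gla (659, next 529, ratio 0.545). The same mouse was far below them for Foxo3 (1467, next 1840, ratio 0.581). T_70263 was far above for Rb1cc1 (2443, next 2086, ratio 0.519), and T61342 for Rubcn (2353, next 2120, ratio 0.548).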

How the results depend on the processing

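Of 321 log2 fold changes of members recomputed under an alternative, 293 kept direction and side of the threshold, 17 lost the call, 10 gained it and 1 changed sign, that of Wipi1 with library size only (0.026). Becn1 and Map1lc3b were called under each alternative run, and Ulk1 under each except batch A alone. In batch A alone (4 WT and 3 rNLS8 mice) 2195 genes, 2 members and 6 genes of the wider autophagy list were called, and in both batches 8154, 4 and 27. Fewer mice entered that fit. With library size only 7 members and 8584 genes (47.0%) were called, and Atg5, Gabarap and Tfeb gained the call. The genes whose genotype effect differed between batches numbered 1 with DESeq2 and between 0 and 1 when single mice were left out (1 without T60303, T61345 or T61333). Rb1cc1 lost the call in 13 of 21 such fits and with DESeq2 size factors (adjusted p = 0.0537). No paired analysis was possible because the labels carry mouse numbers and no pairing of mice across genotypes. The alternative with the further Gabarap row was chosen after seeing the data. Nbr1 lay near the threshold and was called with DESeq2, with upper-quartile normalization and without T_70260 or T61342. Depth was not tested as a limit.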
